A study of Homo sapiens with 2 samples.

Results

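The hypoxia response genes examined here are 40 genes fixed by name. They hold the alpha subunits HIF1A and EPAS1 of the hypoxia-inducible factors (HIF) and the enzymes that control them. The others are the best known HIF targets outside glycolysis, and the globins with myoglobin (MB). Of the 40, 38 had at least 1 probe set (a group of short oligonucleotides on the array) whose single annotated gene was the member, which gave 90 probe sets of the 54675 on the array. CA9, a carbonic anhydrase at the cell surface, and FUT11, a fucosyltransferase, had none in the annotation used here and were not analysed. H322c cells, an established non-small cell lung cancer (NSCLC) line, were grown in RPMI with 10% FBS, plated 24 hrs before treatment, and kept for 4 days with 1 µM gefitinib, an inhibitor of the EGFR kinase, or with 0.1% DMSO as the vehicle control. RNA from each culture was hybridized to 1 Affymetrix U133 Plus 2.0 array, so each condition is 1 array of 1 cell line, no test was possible, and every difference below describes these 2 arrays.

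HIF is a transcription factor made of an oxygen-regulated alpha subunit and a constant beta subunit. When oxygen is present, prolyl hydroxylases mark the alpha subunit, and the VHL protein then directs its degradation. When oxygen is scarce the alpha subunit escapes, enters the nucleus and binds a short core sequence in its target genes, which serve angiogenesis, glucose uptake, mitochondrial turnover and collagen processing. Since HIF alpha is controlled mainly at the protein level, its mRNA does not report its activity. Myoglobin is an oxygen-binding globin of heart and skeletal muscle that has also been found in epithelial tumors.

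The values are signals of the MAS5 program on a linear scale. Signals under 100 were set to 100, and a gene was counted as measured where either array gave a probe set of it a signal of the floor or more. Of several measured probe sets, the one whose log2 signals averaged highest across the arrays, called the brightest below, stood for the gene, and 2-fold was the threshold for calling a difference. A fold whose lower signal fell short of the floor is a bound, written as at least N-fold. Of the members, 32 were measured, 27 of them with both signals at the floor or over it. EGLN2, NGB, CA12, LOX, ANGPTL4 and MXRA5 were under the floor at all of their probe sets. Signals of different probe sets are not on a common scale, so levels are compared between the arrays and never between genes.

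The cells carried the transcripts of an epithelial line on both arrays. All 6 epithelial markers (EPCAM, CDH1, KRT7, KRT8, KRT18 and KRT19) were measured and were within 2-fold. Of 7 fibroblast markers only COL1A1 reached the floor, and of 6 endothelial markers only PECAM1 and VWF did. COL1A1 had 420.8 under DMSO and 950.2 under gefitinib at its brightest probe set, more than 2-fold higher. The log2 ratios of its 3 measured probe sets ran from 0.14 to 1.57. VWF had 30 and 496, at least 4.96-fold higher, and PECAM1 had 128.4 and 78, at least 1.28-fold lower. No leukocyte marker reached the floor, and of the red cell markers HBB alone did. The summed signal of the 6 endothelial markers was 275.5 and 661.6, that of the 7 fibroblast markers 1404 and 2146.2, and the part of either in the values below was not tested. The ratio of 3' to 5' signal rises as RNA degrades. That of GAPDH was 0.946 under DMSO and 1.01 under gefitinib, and that of ACTB 1.19 and 1.36. Over 4610 genes with several probe sets, the log2 ratios within a gene had an SD of 0.54, a spread of the measurement and not of cultures.

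MB was higher with gefitinib by the largest ratio among the measured members. Its single probe set, 204179_at, had a signal of 477.4 under DMSO and 9640.6 under gefitinib, 20.2-fold higher (log2 ratio 4.34). Both signals were above the floor, so the fold is not a bound, and it ran from 17.7 to 23.6 over the scalings tried. In RNA of a whole culture, a change in the number of cells with a transcript and one in its amount per cell cannot be told apart. The other globins did not share this difference. Cytoglobin (CYGB), which is found in many tissues, had 101.5 under DMSO and 95.7 under gefitinib at its only measured probe set, within a few units of the floor on both arrays. Neuroglobin (NGB), the globin of neurons, had signals between 3.2 and 23.4 at its 2 probe sets.

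In all, 3 of the 32 measured members (9.38%) were at least 2-fold higher with gefitinib, against 13.3% of all 11223 measured genes. At least 2-fold lower were also 3 members (9.38%), against 6.2% of all measured genes. With 3 genes on each side, nothing particular to the list is read from these shares. The 3 higher members were MB, RORA and VHL, and the 3 lower ones were STC1, LOXL2 and ANKRD37. The other 26 measured members were within 2-fold as measured, 12 with a log2 ratio above 0 and 14 below. The median log2 ratio of the 32 was -0.02, beside 0.12 for all measured genes. The members that passed 2-fold went both ways.

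**Figure D1:**
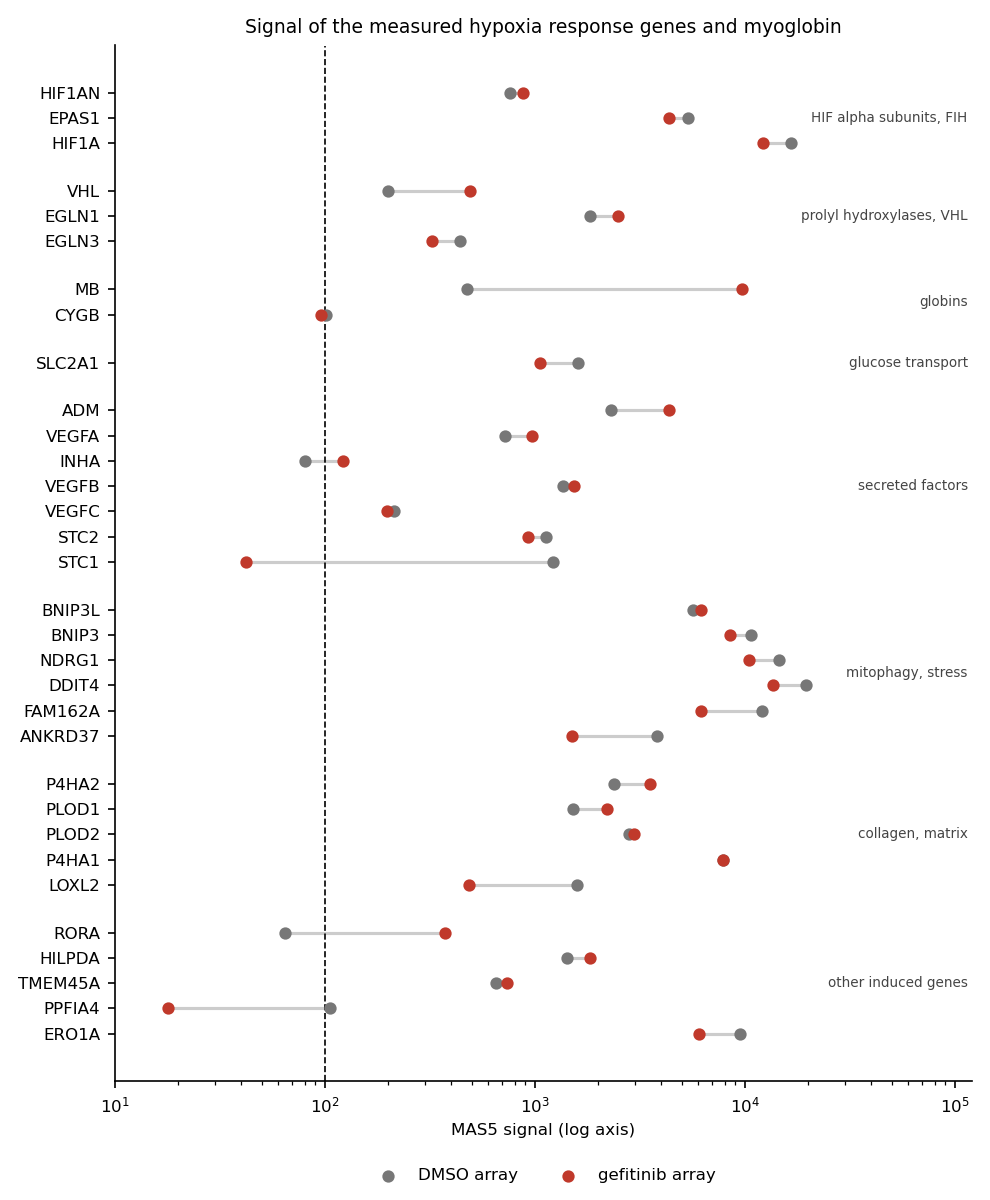
MAS5 signal (horizontal log axis) of the brightest probe set of each of the 32 measured members under DMSO (grey points) and gefitinib (red points), from 1 array each, grouped by role. The dashed line is the floor of 100; MB goes from 477.4 to 9640.6 while STC1 goes from 1221.1 to 42.1, and most other pairs lie close together.

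The HIF alpha subunits were within 2-fold. HIF1A, the subunit present in most cells, had a signal of 16610.6 under DMSO and 12232.7 under gefitinib (log2 ratio -0.44). EPAS1, which encodes HIF-2 alpha, had 5349.6 and 4335.8 (-0.30), and its other 2 probe sets were under the floor. Both were somewhat lower with gefitinib under each of the scalings tried, by less than the SD between probe sets of a gene as deposited. HIF1AN encodes FIH, the asparaginyl hydroxylase that blocks the contact of HIF alpha with its coactivators. Its brightest probe set had 759.3 under DMSO and 882.2 under gefitinib (0.22), and the other 2 had log2 ratios of 0.69 and 0.96, so all 3 were higher with gefitinib.

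The enzymes that mark HIF alpha for degradation gave mixed values. VHL, the substrate receptor of the ligase that destroys HIF alpha, had 198.7 under DMSO and 489.0 under gefitinib at 1559227_s_at, 2.46-fold higher (log2 ratio 1.30). Its second probe set, 203844_at, was under the floor with signals of 16 and 11.8, so the difference rests on 1 probe set. EGLN1, the main prolyl hydroxylase at normal oxygen, had 1823.8 and 2497.9 at its brightest probe set (0.45), and the other 2 measured probe sets had log2 ratios of -0.43 and 0.22. EGLN3, a prolyl hydroxylase that is itself a HIF target, had 439.9 and 323.9 (-0.44) at 1 probe set and 114.5 and 185.3 (0.69) at the other. The probe sets of both hydroxylases thus disagreed in sign. EGLN2 had 3.4 and 1.8 at its only probe set.

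Among the secreted factors, stanniocalcin 1 stood apart from the rest. STC1, a glycoprotein hormone induced by hypoxia in many tumor lines, had 1221.1 under DMSO and 42.1 under gefitinib at 204595_s_at, at least 12.2-fold lower. At 204597_x_at it had 911.7 and 43.4, at least 9.12-fold lower, and at 204596_s_at 334.4 and 24.4, at least 3.34-fold lower. All 3 probe sets went from well above the floor with DMSO to under it with gefitinib. Its relative STC2, which belongs to the endoplasmic reticulum stress response as well, gave probe sets that disagreed. At 203439_s_at the signal of STC2 was 1124.9 under DMSO and 929.8 under gefitinib (log2 ratio -0.27), and at 203438_at it was 467.7 and 1629.2, 3.48-fold higher. The choice between these probe sets decides the direction of STC2.

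VEGFA, the principal angiogenic factor under HIF control, had 4 measured probe sets that split in pairs. At 210512_s_at the signal was 718.4 under DMSO and 973.6 under gefitinib (log2 ratio 0.44), and at 212171_x_at it was 464.7 and 590.6 (0.35). At 210513_s_at it was 387.0 and 174.8 (-1.15), and at 211527_x_at it was 259.4 and 72.9, at least 2.59-fold lower. The brighter pair was slightly higher with gefitinib and the dimmer pair more than 2-fold lower, and the mean over the 4 was -0.43. Which transcripts each probe set reads was not examined. VEGFB (1364.0 and 1529.0, log2 ratio 0.16) and VEGFC, a lymphatic growth factor (213.8 and 198.3, -0.11), had nearly equal signals on the arrays.

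Adrenomedullin (ADM), a vasodilator peptide and a common marker of hypoxia, had 2302.4 under DMSO and 4370.3 under gefitinib, 1.90-fold higher and just inside the threshold. It passed 2-fold after centring on the normalization-control probe sets (log2 ratio 1.06) or scaled to GAPDH (1.15). INHA, an inhibin subunit, had 80.8 and 122.4, at least 1.22-fold higher. Of the 7 measured secreted factors, STC1 was the only one past 2-fold as deposited.

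Of 6 measured genes of mitophagy, growth arrest and stress, 5 had a log2 ratio below 0 and 1 was at least 2-fold lower, against 43.0% and 6.2% of all measured genes. With 6 genes, nothing particular to the group is read from these shares. Their median was -0.50, between -0.69 and -0.28 in the other scalings, among them -0.32 with lowess. ANKRD37, an ankyrin repeat protein known as a direct HIF target, had 3798.2 under DMSO and 1501.0 under gefitinib, 2.53-fold lower (log2 ratio -1.34). FAM162A, a mitochondrial protein induced by hypoxia, had 12124.8 and 6171.9 at its brightest probe set, 1.96-fold lower. Log2 ratios of -0.95 and -0.97 came from the next 2 probe sets of FAM162A, and these 3 carry the suffix of probe sets that can cross-hybridize. A dimmer one, 235850_at, had 130.5 and 125.6, near the floor. FAM162A was the member nearest to the threshold from within, and it passed it (-1.16) when the arrays were scaled to spike-ins.

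The remaining stress genes were within 2-fold. DDIT4, an inhibitor of mTORC1, had 19586.6 under DMSO and 13682.8 under gefitinib (log2 ratio -0.52). NDRG1, a growth-arrest protein often used as a hypoxia marker, had 14570.6 and 10424.7 (-0.48). BNIP3, a mitophagy receptor, had 10717.9 and 8501.5 (-0.33) at 1 probe set and a log2 ratio of -0.31 at the other. Its relative BNIP3L had 5646.9 and 6197.6 (0.13) at 1 probe set and -0.41 at the other. All of these signals were far above the floor on both arrays.

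Of the collagen and matrix enzymes, LOXL2 was the only measured one past 2-fold. LOXL2, a lysyl oxidase that crosslinks collagen, had 1592.5 under DMSO and 487.3 under gefitinib at 202998_s_at, 3.27-fold lower (log2 ratio -1.71). Its other 3 probe sets were under the floor on both arrays. The prolyl hydroxylase subunits of collagen differed little or were higher. P4HA1 had 7902.1 and 7836.1 (-0.01), and P4HA2 had 2373.6 and 3517.4 (0.57), with 0.91 at a second probe set. The lysyl hydroxylase PLOD1 had 1514.5 and 2210.2 (0.55) and PLOD2 had 2820.4 and 2953.7 (0.07), with -0.10 at its second probe set. LOX had signals no higher than 20.4, and MXRA5, a matrix-remodeling protein, had 5.0 under DMSO and 29.5 under gefitinib, both under the floor.

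Among the remaining members RORA was the only one past 2-fold. RORA, a nuclear receptor, had 64.7 under DMSO and 373.6 under gefitinib at 226682_at, at least 3.74-fold higher. Its other 2 measured probe sets, 210426_x_at and 210479_s_at, had log2 ratios of 0.19 and -0.40. The mean over the 3 was 0.56, below 2-fold, and with a floor of 200 the bound of RORA was 0.90. ERO1A, the oxidase that drives disulfide formation in the endoplasmic reticulum, had 9500.1 and 6050.9 at its brightest probe set (-0.65). Its other 2 probe sets were past 2-fold, at log2 ratios of -1.08 and -1.12, so all 3 were lower with gefitinib and the value taken for the gene is the smallest difference of them.

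HILPDA, a lipid droplet protein, had 1418.8 and 1825.8 (log2 ratio 0.36), and TMEM45A, a membrane protein, had 652.4 and 736.3 (0.17). PPFIA4, a liprin, had 105.9 and 17.9. This is at least 1.06-fold lower at the floor of 100, and at least 2-fold lower with a floor of 50 (-1.08). The glucose transporter SLC2A1 had 1606.1 and 1063.0 at its brightest probe set, 1.51-fold lower (-0.60), and the bound at its second was also -0.60. CA12, a carbonic anhydrase of the cell surface, did not exceed 96.5 at any of its 7 probe sets.

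**Figure D2:**
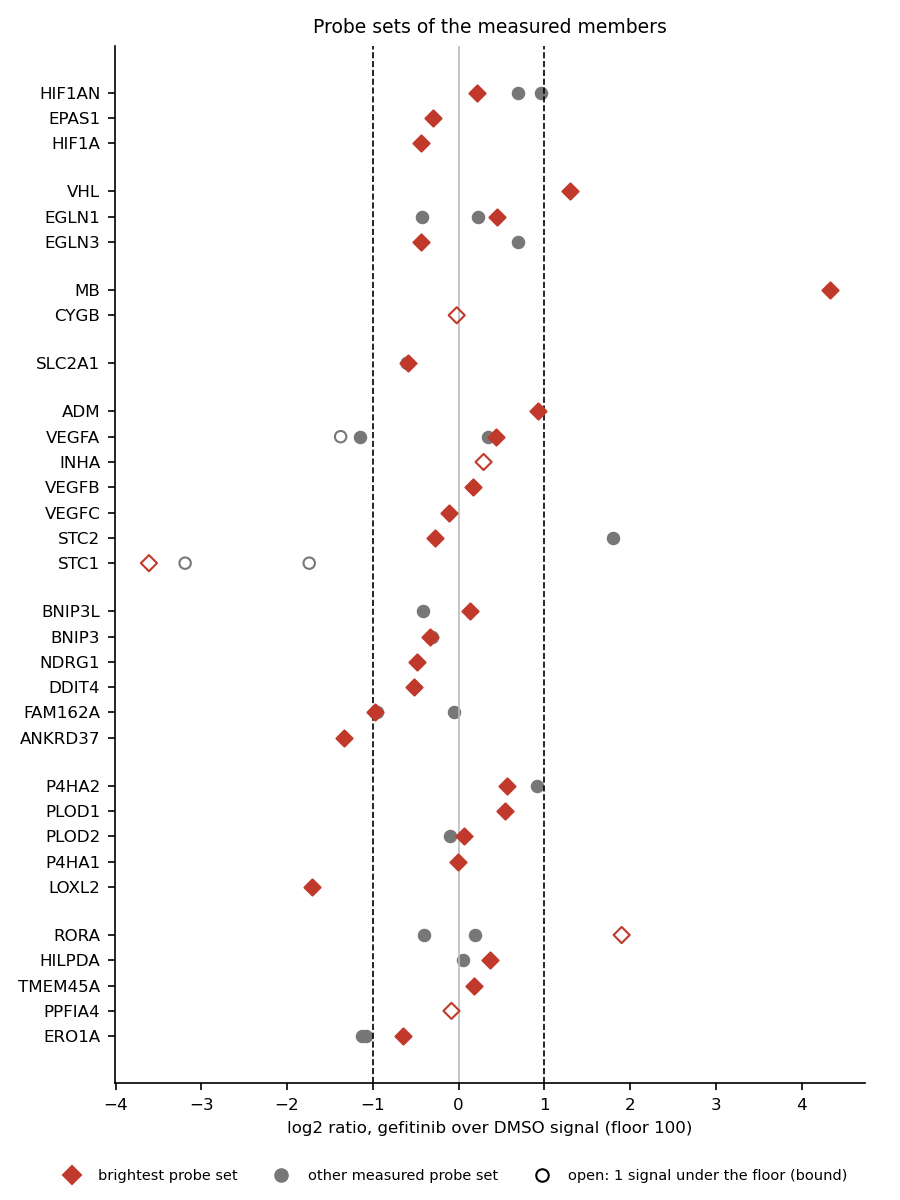
Each of the 56 measured probe sets of the 32 measured members by its log2 ratio, gefitinib over DMSO (horizontal axis), 1 array per condition. Diamonds are the brightest probe set of a gene and circles the others, open symbols are bounds, with 1 of the signals below the floor, and dashed lines mark 2-fold; the 3 STC1 probe sets all lie left of -1, while those of STC2, VEGFA and RORA spread to either side of 0.

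Of the 32 measured members, 17 had 1 measured probe set. Of the other 15, the probe sets of 8 all had the same sign and those of 7 did not. The 7 were EGLN1, EGLN3, VEGFA, BNIP3L, PLOD2, STC2 and RORA. With genes of 1 measured probe set included, 25 of the 32 members had a single sign, beside 9066 of all 11223 measured genes. Among the members past 2-fold, STC1 was the only one with several measured probe sets of the same sign, while MB, VHL, LOXL2 and ANKRD37 rest on 1 measured probe set each and RORA on 1 of 3.

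The HIF core was searched as ACGTG and GCGTG on both strands in the 250 bases before each start in the RefSeq promoter table (GRCh38.p14), and overlapping matches were merged into 1. Of the 40 members 31 had an entry. Those without were VHL, STC1, LOXL2, VEGFA, CYGB, BNIP3L, HILPDA, FUT11 and NDRG1, so that of the 6 members past 2-fold only MB, RORA and ANKRD37 could be searched. A total of 23 of the 31 (74.2%) had a match before at least 1 start. By windows, 25 of 37 member windows (67.6%) had a match, against 43.2% of all 35116 windows of the same length. The list was drawn largely from known HIF targets, so this share only describes it. The windows of ANKRD37 (chr4:185396591-185396840, plus strand) and FAM162A (chr3:122383932-122384181, plus strand) are shown since these genes had the lowest log2 ratios among members with a match. The window of MB (chr22:35623355-35623604, minus strand), at the most upstream of its 3 listed starts, is shown since MB had the highest ratio. Capitals mark the matches, and each window is written 5' to 3'.
ANKRD37: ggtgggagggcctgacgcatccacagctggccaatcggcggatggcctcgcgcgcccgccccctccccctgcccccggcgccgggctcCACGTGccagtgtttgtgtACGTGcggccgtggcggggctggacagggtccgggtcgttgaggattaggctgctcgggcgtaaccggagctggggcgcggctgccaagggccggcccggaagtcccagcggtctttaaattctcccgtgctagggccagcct
FAM162A: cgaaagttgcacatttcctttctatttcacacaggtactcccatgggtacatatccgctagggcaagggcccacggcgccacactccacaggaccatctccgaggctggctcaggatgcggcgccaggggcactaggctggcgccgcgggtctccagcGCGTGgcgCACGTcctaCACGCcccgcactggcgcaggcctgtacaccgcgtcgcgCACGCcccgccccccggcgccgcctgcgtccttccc
MB: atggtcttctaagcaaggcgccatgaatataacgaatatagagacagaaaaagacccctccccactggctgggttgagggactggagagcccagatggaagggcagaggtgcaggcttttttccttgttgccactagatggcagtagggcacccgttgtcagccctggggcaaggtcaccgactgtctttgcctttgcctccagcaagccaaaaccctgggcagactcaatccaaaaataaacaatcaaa

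ANKRD37 had 2 matches, the first of which merged both strands and began at position -162 from the start, with the other at -143. FAM162A had 4, beginning at positions -92, -84, -75 and -36, and BNIP3 had 5, the most in a single window of a member. None of the 3 listed MB windows had a match, and neither did that of RORA. The 17 measured members with a match had log2 ratios from -1.34 to 0.92 with a median of -0.11, 6 of them above 0 and 11 below. The 7 measured members with an entry and no match had a median of 0.22 and ran from -0.60 to 4.34. Members with several matches, such as PLOD1 with 2 and DDIT4 with 3, lay on both sides of 0. A match is a string of letters and not a bound site, and a window without a match says only that these letters are not in it.

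**Figure D3:**
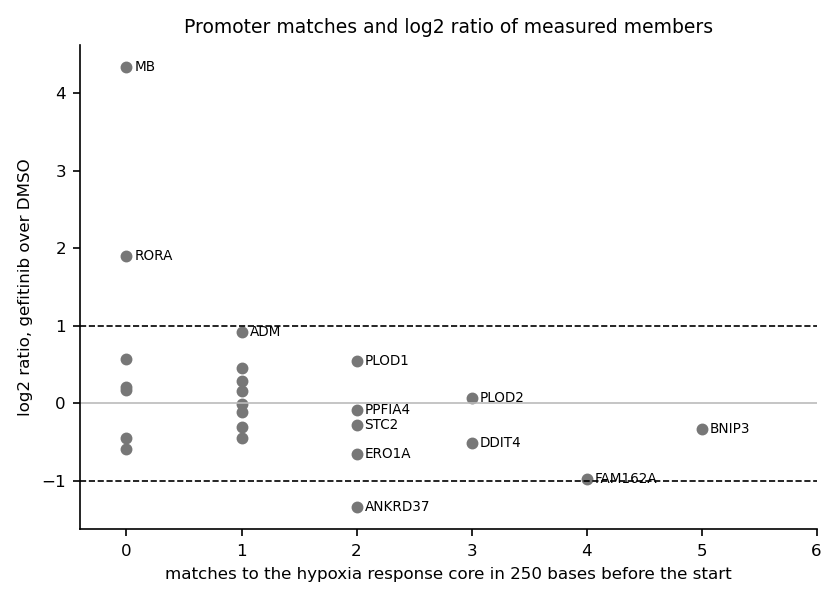
Difference of each gene between the arrays (vertical axis, log2 of gefitinib over DMSO) by the number of matches to the HIF core in the 250 bases before the start (horizontal axis, the highest count where several starts are listed) for the 24 measured members with a promoter entry. Dashed lines mark 2-fold; MB and RORA, with 0 matches, are the only points above the upper line, and ANKRD37, with 2 matches, is the only one below the lower line.

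Other genes of the HIF pathway also went both ways. In a list of 23 partners, degradation genes and feedback genes, 21 were measured. Of these, 2 were at least 2-fold higher and 2 at least 2-fold lower, against 13.3% and 6.2% of all measured genes. With 2 genes on each side, nothing particular to the list is read from these counts. The median log2 ratio of the list was 0.01 and ran from -0.18 to 0.23 over the scalings tried. BHLHE40, a transcriptional repressor induced by hypoxia and by growth factor signaling, had 13272.9 under DMSO and 1593.8 under gefitinib (log2 ratio -3.06), with -3.20 at its second probe set. JMJD6, an oxygen-dependent hydroxylase, had 3031.4 and 591.6 (-2.36), with -3.03 at its second. On the higher side, CITED2, which competes with HIF alpha for the coactivators CREBBP and EP300, had 367.2 and 1318.3 (1.84), with 2.04 at its second probe set. CREBBP itself had 659.0 and 1584.4 (1.27), with bounds of 0.01 and 0.47 at its other 2 measured probe sets. The beta subunit ARNT (0.48) and the components of the VHL ligase CUL2 (0.20), ELOB (-0.20), ELOC (-0.46) and RBX1 (-0.14) were within 2-fold. Their probe sets disagreed in sign for ARNT (-0.23 to 0.52), ELOB (-0.20 to 0.10) and ELOC (-0.46 to 0.19).

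Glycolytic targets of HIF had a lower median log2 ratio than the members. Of 19 genes 17 were measured, 13 of them with a log2 ratio below 0, against 43.0% of all measured genes. ALDOC, an aldolase, was lower by a log2 ratio of -1.84, and HK2, a hexokinase, by -1.04. These were the 2 genes of the list at least 2-fold lower, against 6.2% of all measured genes. With 2 genes, nothing particular to the list is read from this count, which changed with the scaling. No glycolytic target was at least 2-fold higher as deposited. The median was -0.51, beside -0.02 for the members, and it ran from -0.70 to -0.29 over the scalings tried.

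Since MB is a muscle protein, a list of 25 striated muscle genes was set beside it. Of the 24 with a probe set 20 were under the floor on both arrays, among them the muscle creatine kinase CKM (2.1 under DMSO and 2.3 under gefitinib), the skeletal actin ACTA1 (4.0 and 14.5), DES (99.1 and 43.9) and the myogenic factor MYOG (5.7 and 4.7). Of the 4 that were measured, 3 were at least 2-fold higher with gefitinib, against 13.3% of all measured genes. The list was chosen with earlier results of these data known. With only 4 genes measured, nothing particular to the list is read from this share. TNNC1, the troponin C of slow and cardiac muscle, had 632.1 and 8439.6, 13.4-fold higher (log2 ratio 3.74). TNNT1, a troponin T, had 1485.3 and 4282.2, 2.88-fold higher, and MEF2C, a transcription factor of muscle and other tissues, had 214.2 and 803.6, 3.75-fold higher. MYOD1 had 158.8 and 8.8, at least 1.59-fold lower. The other troponins of the list with a probe set, TNNI1 (5.9 and 2.5) and TNNC2 (40.4 and 94), were under the floor. TNNT2, also in the list, had no single-gene probe set and was not analysed. The median of the measured muscle genes was 1.72 as deposited, and 0.87 and 0.95, with 6 genes measured, after centring on the normalization-control probe sets and after scaling to GAPDH.

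**Figure D4:**
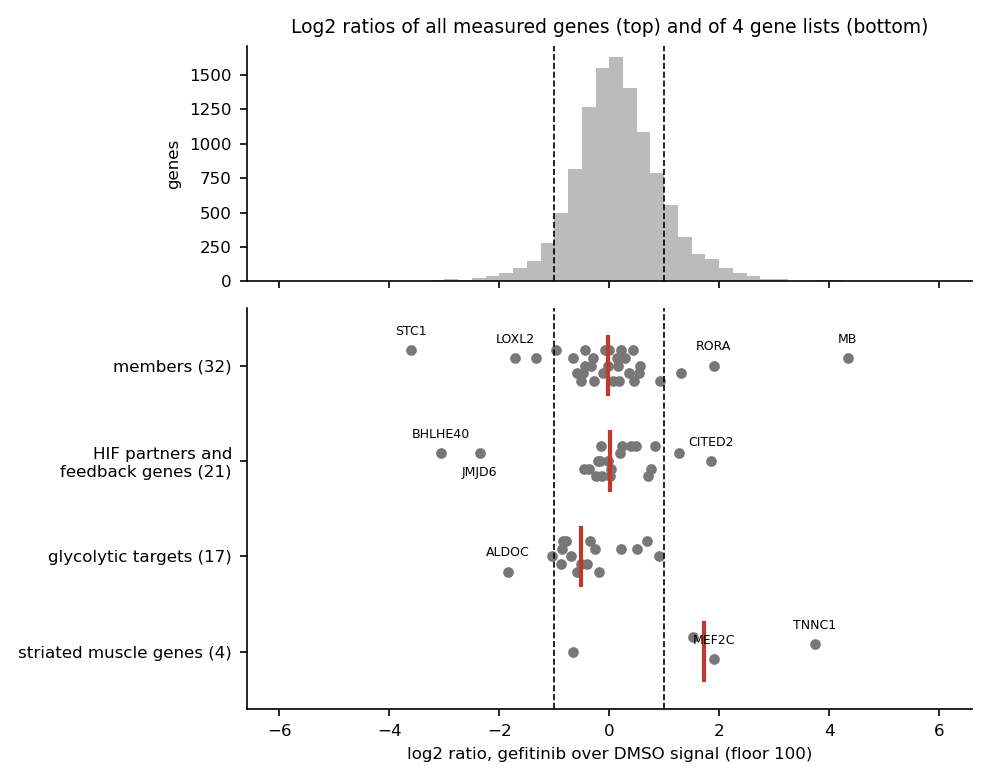
Number of genes in bins of 0.25 log2 units for all 11223 measured genes (top) and log2 ratios of gefitinib over DMSO signal of single genes (points) in 4 lists with the number measured in parentheses (bottom), 1 array per condition. Red bars are medians, at -0.02 for the members, 0.01 for the partners and feedback genes, -0.51 for the glycolytic targets and 1.72 for the 4 measured striated muscle genes, and dashed lines mark 2-fold.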

How the data were processed

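Total RNA from H322c cultures was hybridized to U133 Plus 2.0 arrays, 1 per condition, mapped from the treatment label. The authors deposited MAS5 signal intensities on a linear scale, and the submitters' processing notes name MAS5 without a version. The 2% trimmed mean came to 500.1 on either array. A common scaling of this kind would remove a shift shared by most transcripts. Of 54675 probe sets, 41097 had 1 annotated gene, 1801 several and 11777 none listed; 41043 were matched by gene identifier to GRCh38.p14, whose symbols were used. Ratios were taken after the floor of 100. The number of arrays limits the precision, and no p-value was computed. The members and lists were chosen with earlier results of these data known, and every member is reported. Of the other lists the text names genes past 2-fold, and names ARNT, CUL2, ELOB, ELOC, RBX1, CKM, ACTA1, DES, MYOG, MYOD1, TNNI1 and TNNC2 outside this rule, after their values were seen. TNNT2 is named only as a gene without a probe set. Ratios and the 2-fold call were tested on simulated data. Genes given a fold there were read only where both signals reached the floor, so bounds were not tested. A call rate was required only for genes simulated 3-fold higher. Software was Python 3.11.15, with pandas 2.3.3 and numpy 2.4.6 for tables, statsmodels 0.14.6 for lowess, scipy 1.17.1 for trimmed means and matplotlib 3.10.9 for plots. Alternatives were 5 other scalings (quantile, normalization-control probe sets, GAPDH, spike-ins, lowess with span 0.3), floors of 50 and 200, log2 of signal plus 50, 3 other gene values and folds of 1.5 and 3. Counting only genes whose probe sets share a sign was added after the data were seen.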

Additional observations from a re-analysis of the deposited data

How the results depend on the processing

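MB, VHL, STC1, LOXL2 and ANKRD37 were past 2-fold in the same direction under each of the 12 alternatives to scaling, floor and gene value. RORA was past it under 9. It was not past 2-fold with the mean over probe sets (0.56) or a floor of 200 (0.90). Where probe sets had to share a sign, RORA was left out. MB, VHL, LOXL2 and ANKRD37 have 1 measured probe set each, so other gene values and the sign rule could not change them. MB, LOXL2 and ANKRD37 had both signals over 200, so neither could the floors. Scaling to normalization-control probe sets, GAPDH or spike-ins left STC1 the same, its lower signal being under the floor. The 12 alternatives are therefore not 12 separate checks. The number of members at least 2-fold higher was between 2 and 4 throughout, and the number lower was 3 or 4 except at 1.5-fold (6) and 3-fold (2). With the probe set of highest signal on either array STC2 was at 1.80, against -0.27. PPFIA4 was at -1.20 with log2 of the signal plus 50. The FAM162A value was -0.06 without cross-hybridizing (_x_at) probe sets. The median of all measured genes moved by 0.13 when centred on normalization-control probe sets, by 0.21 when scaled to GAPDH and by -0.18 when scaled to spike-ins. The member median was 0.17 when scaled to GAPDH, and it stayed below the median of all genes in every setting. The difference was -0.13 as deposited, -0.07 with lowess and -0.04 with spike-ins. Scaling a whole array moves both medians, so the shared sign over settings is not a test of the members. For the glycolytic targets, the number at least 2-fold lower was 1 with quantile normalization, lowess, normalization-control probe sets, GAPDH or 3-fold, 3 with the mean over probe sets, 5 with spike-ins and 8 at 1.5-fold, and the number higher was 1 with normalization-control probe sets or GAPDH (itself in this list) and 2 at 1.5-fold. Their median was -0.35 with quantile normalization, -0.32 with lowess, -0.29 with GAPDH and -0.70 with spike-ins. The share of all measured genes called lower also changed with the setting, from 6.2% as deposited. It was 7.3% with quantile normalization, 7.5% with lowess, 9.2% with spike-ins and 5.6% with the mean over probe sets. With normalization-control probe sets it was 4.7%, with GAPDH 3.9%, at 1.5-fold 14.9% and at 3-fold 2.05%. The share called higher was 13.3% as deposited, 16.97% with normalization-control probe sets, 19.2% with GAPDH and 26.4% at 1.5-fold. It was 10.7% with quantile normalization, 10.2% with lowess, 9.42% with spike-ins and 4.78% at 3-fold. The causes were not tested. No paired analysis was possible because each condition is 1 array.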
